A study of Mus musculus with 32 samples.

Results

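The BCL2 family decides whether the outer mitochondrial membrane of a cell stays closed. Pro-survival members (here Bcl2, Bcl2l1, which encodes BCL-XL, Mcl1 and the A1 gene Bcl2a1d) hold the pore-forming effectors Bax and Bak1 in check, and BH3-only members (here Bcl2l11, which encodes BIM, Bbc3, which encodes PUMA, Pmaip1, which encodes NOXA, and Bid) bind the pro-survival proteins or activate the effectors. Open pores release cytochrome c, which starts the caspase cascade of apoptosis, whereas necroptosis, the form of death provoked here, runs through the kinases RipK1 and RipK3 when caspases are blocked. Much of the control over these proteins is post-translational, so a transcript level is only one layer of it. These 10 genes were taken by name, as every array probe whose gene name was one of them. All 10 were on the array, through 13 probes, and all 10 passed the filter on dim probes, among 16037 genes tested and 24082 genes with a symbol.

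The samples were bone marrow-derived macrophages, cells grown from mouse bone marrow for 6 days in the macrophage growth factor M-CSF, from WT C57BL/6 mice or from mice without IFNAR1 (Ifnar1-/-), a chain of the type I interferon receptor. Each genotype received 8 treatments for 6 h: none, LPS (a ligand of the receptor TLR4), IFNβ, zVAD (an inhibitor of most caspases), LPS+zVAD, IFNβ+zVAD, and the latter pair of mixtures with the RipK1 inhibitor Nec-1. The labels give 100 ng/mL LPS and 1000 U/mL IFNβ, and other doses of the same agents appear in the study's own description. The 16 groups had 2 single-colour arrays each, 32 in all, and the labels do not say whether replicates came from separate mice or cultures, so p-values may measure technical spread only. Values are log2 intensities after quantile normalization, and the number of arrays limits their precision. A change is the difference of 2 group means from a single limma fit to all 32 arrays, printed with its standard error (SE) and its Benjamini-Hochberg adjusted p over all 16037 genes, and a gene was called at an adjusted p under 0.05.

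The arrays lay on 4 slides, each with the 8 treatments of 1 genotype and 1 replicate number, so a level in 1 genotype against the other cannot be told apart from the slide, while a change with treatment is measured within slides. The 2 Ifnar1 probes with separate ranges read 9.94 to 11.88 and 7.88 to 10.23 in WT cells against 7.29 to 8.74 and 5.82 to 7.35 in Ifnar1-/- cells, and a further probe overlapped between genotypes. All 8 macrophage markers on the array were well above background on all 32 arrays. The summed neutrophil markers (13.48 to 15.45 in WT, 15.52 to 16.64 in Ifnar1-/-) and fibroblast markers (8.58 to 10.14 and 10.81 to 12.59) did not overlap between genotypes, and their part in the results was not tested. In bulk RNA, fewer cells of a type and less RNA per cell cannot be told apart. The second Ifnar1-/- LPS+zVAD+Nec-1 array stood apart from the first, with a correlation of their deviations of -0.453, and correlated at 0.723 with the Ifnar1-/- IFNβ+zVAD+Nec-1 mean, so results on that group are given with and without it.

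Sequence shows what was measured for the member that moved most. The main Bcl2l11 probe, a 60-base oligonucleotide, was placed by the array design at chr2:127972893-127983988 (mm9) over 11096 bases, so it joins separate exons and reads spliced RNA, and it was assigned to 3 RefSeq transcripts. It is printed in lower case throughout because no position in it was singled out.

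Bcl2l11 probe: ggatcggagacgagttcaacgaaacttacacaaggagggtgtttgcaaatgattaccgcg

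The other main probes were single 60-base blocks of mm9: chr1:108608970-108609029 for Bcl2, chr2:152606404-152606463 for Bcl2l1, chr3:95466855-95466914 for Mcl1, chr9:88618165-88618224 for Bcl2a1d, chr7:16903403-16903462 for Bbc3, chr7:52717122-52717181 for Bax, chr17:27156807-27156866 for Bak1 and chr6:120843464-120843523 for Bid. The Bcl2a1d probe was assigned to transcripts of Bcl2a1d, Bcl2a1a and Bcl2a1b, near-identical copies on chromosome 9, so its signal is that of the A1 genes together. RefSeq promoters (GRCm38.p6, 250 bases before to 50 after a start) were found for 9 of the 10 members. The A1 copies also share promoter sequence. Over 87 bases, Bcl2a1d matched Bcl2a1a and Bcl2a1b at 79 positions, and the latter pair were identical. Capitals mark TGAATCA, a match to TGANTCA, a loose AP-1 pattern that allows any middle base. It lies 114, 120 and 164 bases before the start at chr9:88731938-88732024 (minus strand), chr9:88956740-88956826 and chr9:89199049-89199135 (plus strand).

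Bcl2a1d: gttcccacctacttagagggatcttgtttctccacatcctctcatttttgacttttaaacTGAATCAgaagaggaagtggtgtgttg
Bcl2a1a: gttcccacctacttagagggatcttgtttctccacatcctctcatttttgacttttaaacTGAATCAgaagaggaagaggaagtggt
Bcl2a1b: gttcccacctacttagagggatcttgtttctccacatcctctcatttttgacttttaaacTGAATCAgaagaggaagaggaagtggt

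For the BH3-only members called with LPS in WT cells, capitals mark the forkhead element GTAAACA in Bcl2l11 (chr2:128125791-128125857, plus strand, 227 bases before the start) and a match to the NF-κB consensus in Bbc3 (chr7:16309426-16309495, plus strand, 137 bases before it).

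Bcl2l11: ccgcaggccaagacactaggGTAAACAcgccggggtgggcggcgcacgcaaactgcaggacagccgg
Bbc3: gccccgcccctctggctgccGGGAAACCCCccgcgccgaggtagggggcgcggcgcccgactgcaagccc

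These elements were searched on both strands and matches are descriptions only. Of 32851 mouse promoters of this length, 7.81% held TGANTCA (Bcl2a1d among the members), 3.65% held GTAAACA (Bbc3 and Bcl2l11) and 4.51% held the NF-κB consensus (Bbc3 and Bcl2l1). The interferon-stimulated response element and the interferon-gamma-activated site TTCNNNGAA were in 3.44% and 8.3% of promoters and in none of the members' windows.

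In WT macrophages LPS, IFNβ and both mixtures with zVAD changed pro-survival and BH3-only genes, Bak1 changed with all of these but LPS+zVAD, and zVAD alone called no member. LPS against untreated cells called 6 of the 10 members (5 higher, 1 lower), beside 41.2% of all genes called. IFNβ called 5, all higher, beside 35.3%. LPS+zVAD called 5 (4 higher, 1 lower) beside 50.9%, and IFNβ+zVAD called 5, all higher, beside 37.5%. The median log2 change of the members was 0.70, 1.13, 1.15 and 1.30 in these 4 comparisons, against -0.08, -0.17, -0.15 and -0.16 over all genes. These comparisons share the untreated arrays. With 10 genes, these counts beside such high background shares are not read as a result about the members.

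Adding inhibitors to LPS called members and adding them to IFNβ called none, a contrast that was itself not tested. The shares of all genes went the same way, so it is not read as a result about the members. In WT cells, LPS+zVAD against LPS called 5 members (4 higher, 1 lower) beside 34.6% of all genes, and LPS+zVAD+Nec-1 against LPS+zVAD called 4 (2 higher, 2 lower) beside 28.5%. limma called 0 members for zVAD against untreated (1 at an unadjusted p under 0.05) beside 0.00624% of all genes, a single gene. It called 0 for IFNβ+zVAD against IFNβ beside 0% and 0 for IFNβ+zVAD+Nec-1 against IFNβ+zVAD beside 0%, and in both the count at an unadjusted p under 0.05 was 0. With the slide as a block, Bcl2l1 was called for zVAD alone (log2 change 0.89, adjusted p = 0.048).

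In Ifnar1-/- macrophages LPS still called 4 members (2 higher, 2 lower) beside 24.8% of all genes, and 7 with the slide as a block, where 38.6% of all genes were called. LPS+zVAD against untreated called 2, both higher, beside 28.2%, and 4 with the block, beside 43%. LPS+zVAD against LPS called 2, both higher, beside 8.25%, and 4 with the block, beside 19.5%. LPS+zVAD+Nec-1 against LPS+zVAD called 2, both lower, beside 18.8%, and 4 with the block, beside 35%. The block thus raised the counts of members and of all genes together. IFNβ called 0 members by limma (0 at an unadjusted p under 0.05) beside 0% of all genes, and the 10 changes lay between -0.38 and 0.12. The counts were also 0 for zVAD beside 0%, IFNβ+zVAD against untreated beside 0.00624%, IFNβ+zVAD against IFNβ beside 0.00624% and IFNβ+zVAD+Nec-1 against IFNβ+zVAD beside 1.58%, with 0, 0, 0 and 1 members at an unadjusted p under 0.05.

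**Figure D1:**
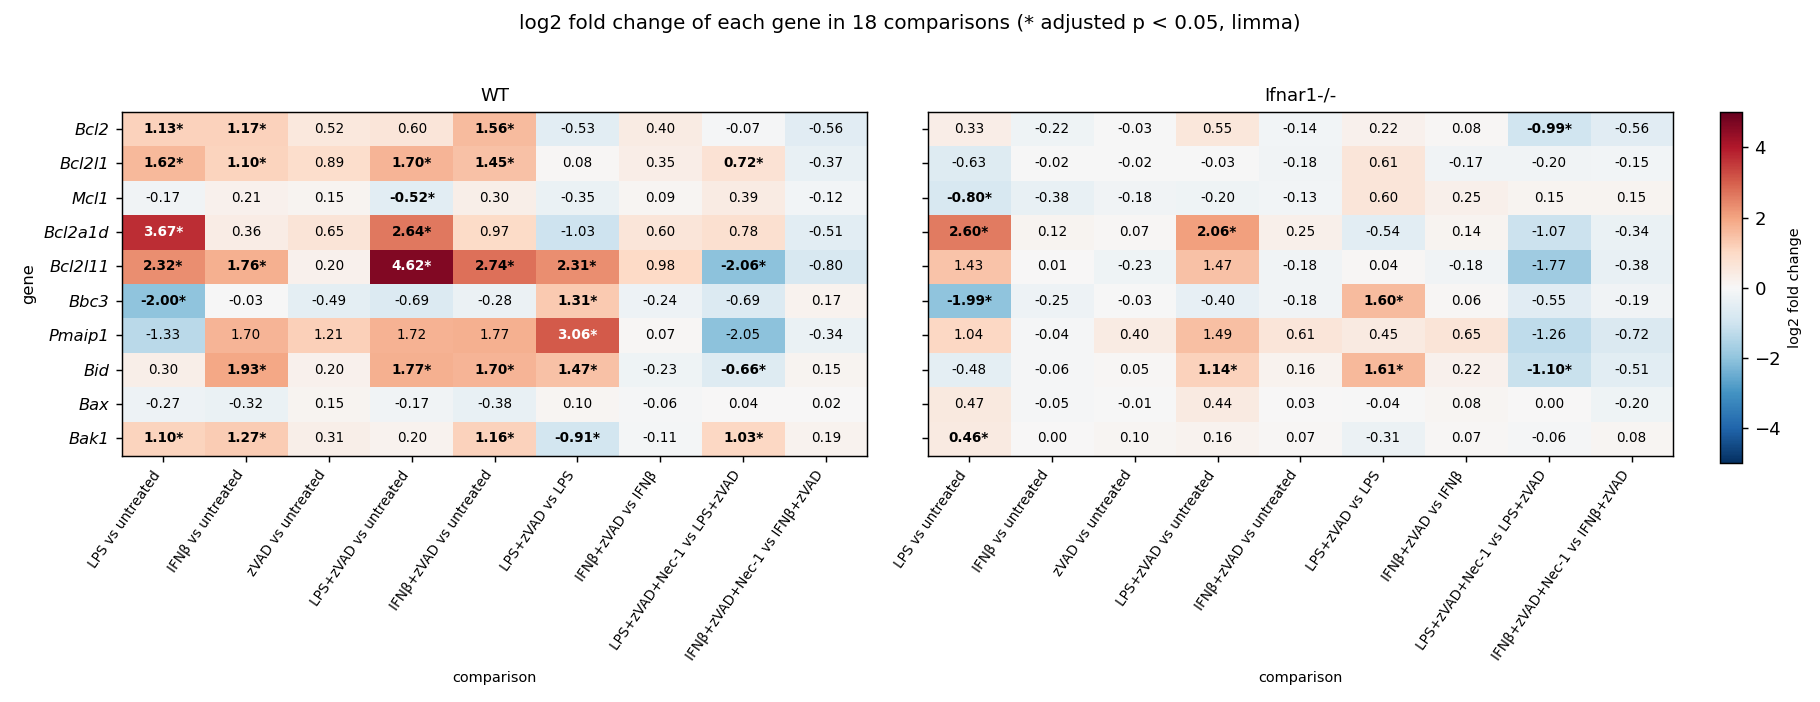
log2 fold change of the 10 genes in 9 comparisons within WT (left) and within Ifnar1-/- macrophages (right), coloured on a scale centred on 0, with an asterisk at an adjusted p under 0.05 (limma). WT cells show changes with LPS, IFNβ and both mixtures, and the Ifnar1-/- IFNβ column lies between -0.38 and 0.12.

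Among the pro-survival genes, Bcl2l1 rose with LPS, IFNβ and both mixtures in WT cells and passed no test in Ifnar1-/- cells. BCL-XL, its product, restrains both effectors. In WT cells the arrays of replicates 1 and 2 read 13.38 and 13.62 untreated, 15.08 and 15.17 with LPS, 14.50 and 14.71 with IFNβ, 15.07 and 15.33 with LPS+zVAD, and 14.81 and 15.10 with IFNβ+zVAD. The untreated pair lay below all other WT arrays. LPS raised Bcl2l1 3.07-fold (log2 change 1.62, SE 0.23, adjusted p = 2.47e-05), IFNβ by 1.10 (0.00115), LPS+zVAD by 1.70 (6.80e-06) and IFNβ+zVAD by 1.45 (8.36e-05). These calls held without any single array of the groups compared.

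In Ifnar1-/- cells Bcl2l1 read 14.81 and 14.54 untreated, 13.92 and 14.17 with LPS, 14.66 and 14.67 with IFNβ, and 14.60 and 14.71 with LPS+zVAD. The untreated Ifnar1-/- arrays thus lay above the untreated WT arrays, a difference of slides or genotype, and the LPS arrays lay below both untreated arrays. The LPS change was -0.63 (adjusted p = 0.0548, and 0.00776 with the slide as a block), and LPS+zVAD against LPS gave 0.61, called with the block alone (0.0206). The group means of Ifnar1-/- cells spanned 0.63 against 2.41 over all groups, the highest being WT LPS+zVAD+Nec-1 at 15.64 and 16.19. A dimmer Bcl2l1 probe at chr2:152655185-152655244 read 6.32 and 7.12 in untreated WT cells and 8.91 and 9.07 with LPS (log2 change 2.27, SE 0.41, adjusted p = 0.000244). It also rose with IFNβ (1.74, 0.00294), LPS+zVAD (2.93, 9.26e-06) and IFNβ+zVAD (2.18, 0.000413), and the correlation of the probes over the 32 arrays was 0.691. In Ifnar1-/- cells the dimmer probe read 9.05 and 9.53 untreated and 8.94 and 9.24 with LPS, which overlap. Its LPS change there was -0.20 (adjusted p = 0.816), so the fall with LPS rests on the main probe.

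Bcl2, the founding survival gene of the family, moved less and less evenly. WT arrays read 8.41 and 7.80 untreated, 9.09 and 9.39 with LPS, 9.58 and 8.97 with IFNβ, 8.82 and 8.60 with LPS+zVAD, and 9.90 and 9.44 with IFNβ+zVAD. All of these treated arrays lay above the untreated pair, which was itself spread. Bcl2 rose by 1.13 with LPS (SE 0.28, adjusted p = 0.00306), 1.17 with IFNβ (0.00301) and 1.56 with IFNβ+zVAD (0.000234). The LPS+zVAD change was 0.60 and was called with the slide as a block (adjusted p = 0.0359). Without WT untreated replicate 2 the LPS change was 0.83 (adjusted p = 0.0676) and the IFNβ change 0.86 (0.0665), and without WT IFNβ replicate 1 the IFNβ change was 0.86 (0.064). The Ifnar1-/- arrays of Bcl2 read 9.07 and 9.08 untreated, 9.38 and 9.42 with LPS and 8.83 and 8.88 with IFNβ. No change against untreated cells was called there on all 32 arrays. With only the arrays compared, the LPS+zVAD change of 0.55 was called.

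Bcl2a1d, one of the A1 genes known as targets of NF-κB in myeloid cells, responded to LPS in both genotypes and passed no test with IFNβ in either. WT arrays read 14.31 and 14.13 untreated, 17.92 and 17.87 with LPS, 17.21 and 16.51 with LPS+zVAD, and 14.08 and 15.09 with IFNβ. Ifnar1-/- arrays read 15.79 and 15.28 untreated, 18.05 and 18.23 with LPS, 17.52 and 17.67 with LPS+zVAD, and 15.81 and 15.50 with IFNβ. The LPS and LPS+zVAD arrays of either genotype lay above all its arrays that had no LPS. LPS+zVAD+Nec-1 was also high in WT (17.76 and 17.53) and was split in Ifnar1-/- cells (17.84 and 15.20, the last on the array that stood apart). LPS raised Bcl2a1d 12.8-fold in WT (log2 change 3.67, SE 0.60, adjusted p = 8.40e-05) and by 2.60 in Ifnar1-/- cells (0.00368), and LPS+zVAD by 2.64 (0.00108) and 2.06 (0.0149). The last call was lost without 1 array in 3 of 4 cases, with changes of 1.80 to 2.31 over the 4 cases and adjusted p up to 0.112. The difference between genotypes in the LPS change was not called.

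Mcl1, a short-lived survival protein whose transcript was bright on all arrays, gave opposite directions on its 2 probes. The brighter probe read 16.52 and 16.54 in untreated WT cells, 16.31 and 16.41 with LPS and 16.13 and 15.89 with LPS+zVAD, a fall of 0.52 (SE 0.21, adjusted p = 0.0410) for the last. That call was lost without WT untreated replicate 1 (-0.53, adjusted p = 0.108), WT untreated replicate 2 (-0.51, 0.127) or WT LPS+zVAD replicate 2 (-0.40, 0.214). With a 75th percentile shift in place of quantile normalization the value was 0.37 (adjusted p = 0.318), and with the mean of both probes 0.24 (0.35). The dimmer probe, at chr3:95465543-95465602, read 13.95 and 13.89 in untreated WT cells, 14.86 and 14.76 with LPS, and 15.01 and 14.82 with LPS+zVAD. It rose with LPS (0.88, SE 0.27, adjusted p = 0.0119), IFNβ (1.10, 0.00325), LPS+zVAD (1.0, 0.00392) and IFNβ+zVAD (1.46, 0.000273). No direction for Mcl1 in WT cells is therefore given. The brighter probe read 16.21 and 16.25 untreated and 15.37 and 15.49 with LPS in Ifnar1-/- cells, a fall of 0.80 (adjusted p = 0.00731), which was lost without Ifnar1-/- LPS replicate 1 (-0.75, 0.0619), with a 75th percentile shift (-0.41, 0.383) and with the mean of both probes (-0.33, 0.271), and the dimmer probe gave 0.14 (0.796). LPS+zVAD against LPS in those cells gave 0.60 on the brighter probe, called with the block alone (0.00972).

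**Figure D2:**
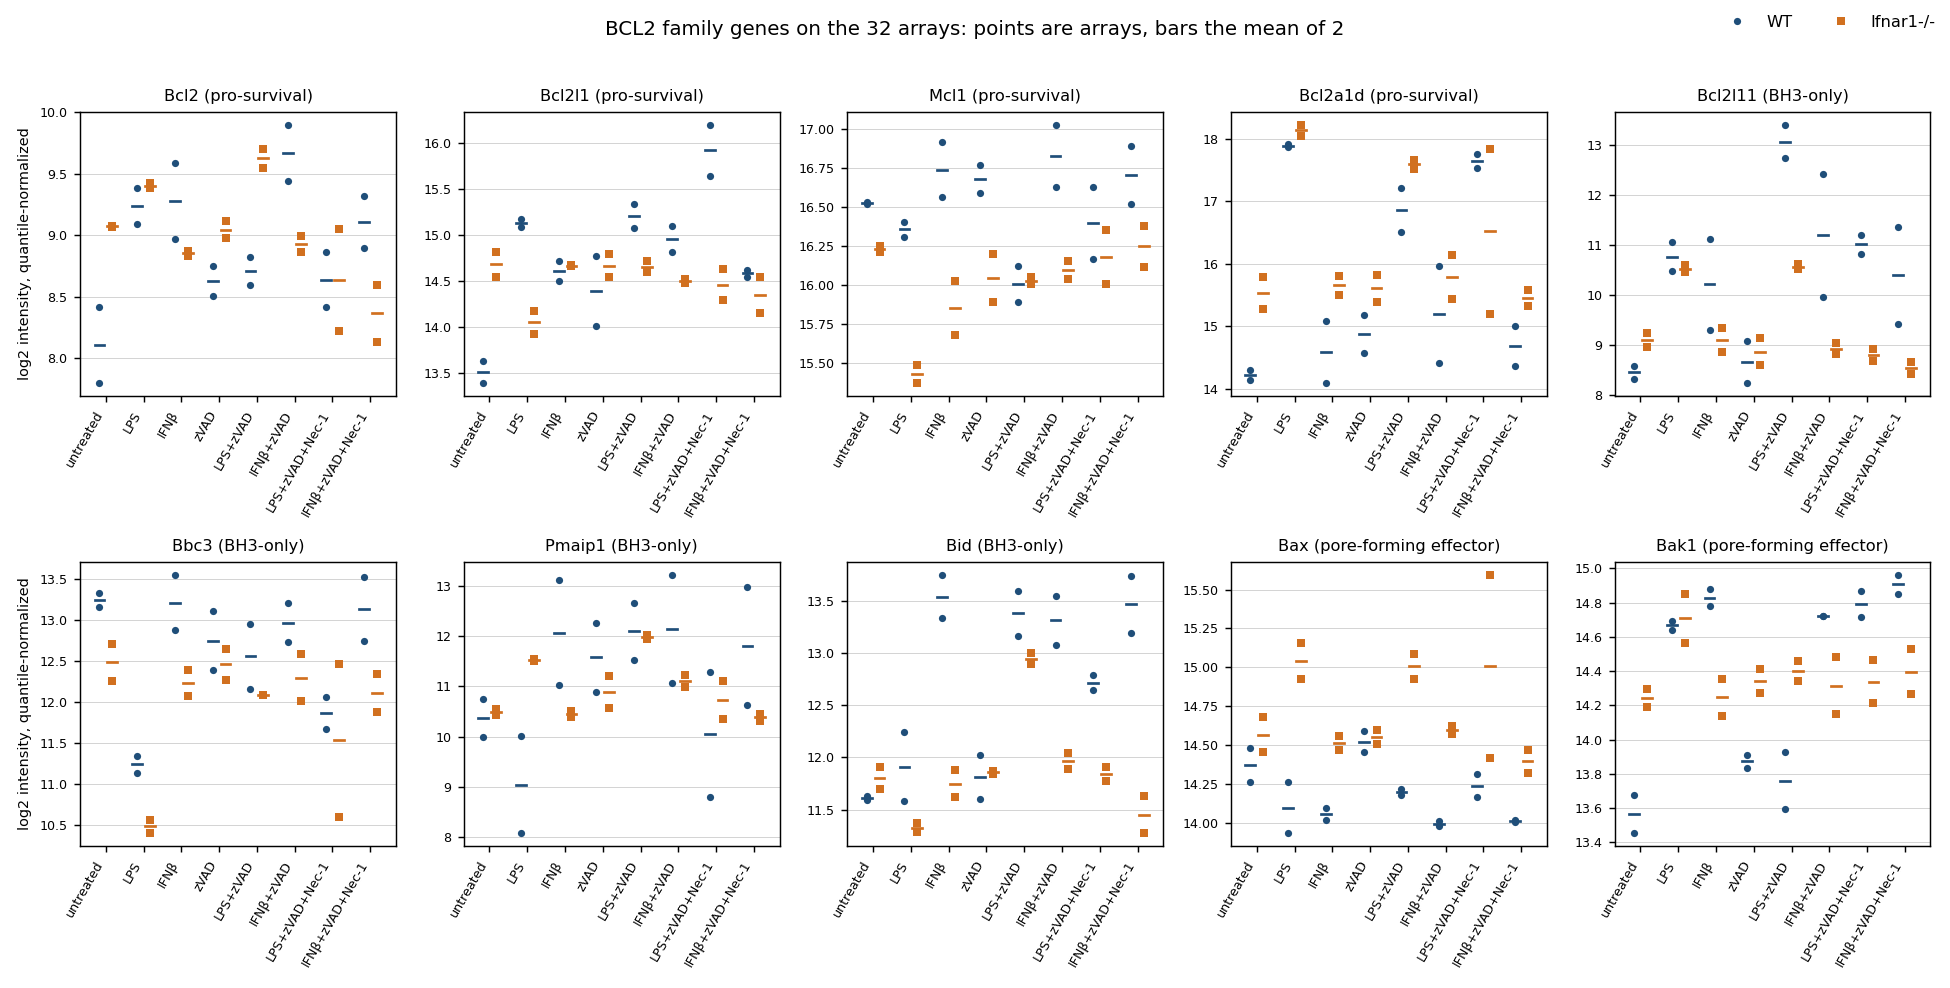
Quantile-normalized log2 intensity of the main probe of each of the 10 genes (vertical axis, own range per panel) in the 8 treatments (horizontal axis), with 1 point per array, WT as blue circles and Ifnar1-/- as orange squares, and bars at the mean of 2. Bcl2l11 is highest in WT LPS+zVAD (12.73 and 13.41), Bcl2a1d is high in the LPS groups of both genotypes, and Bax keeps a narrow range in WT cells.

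**Figure D3:**
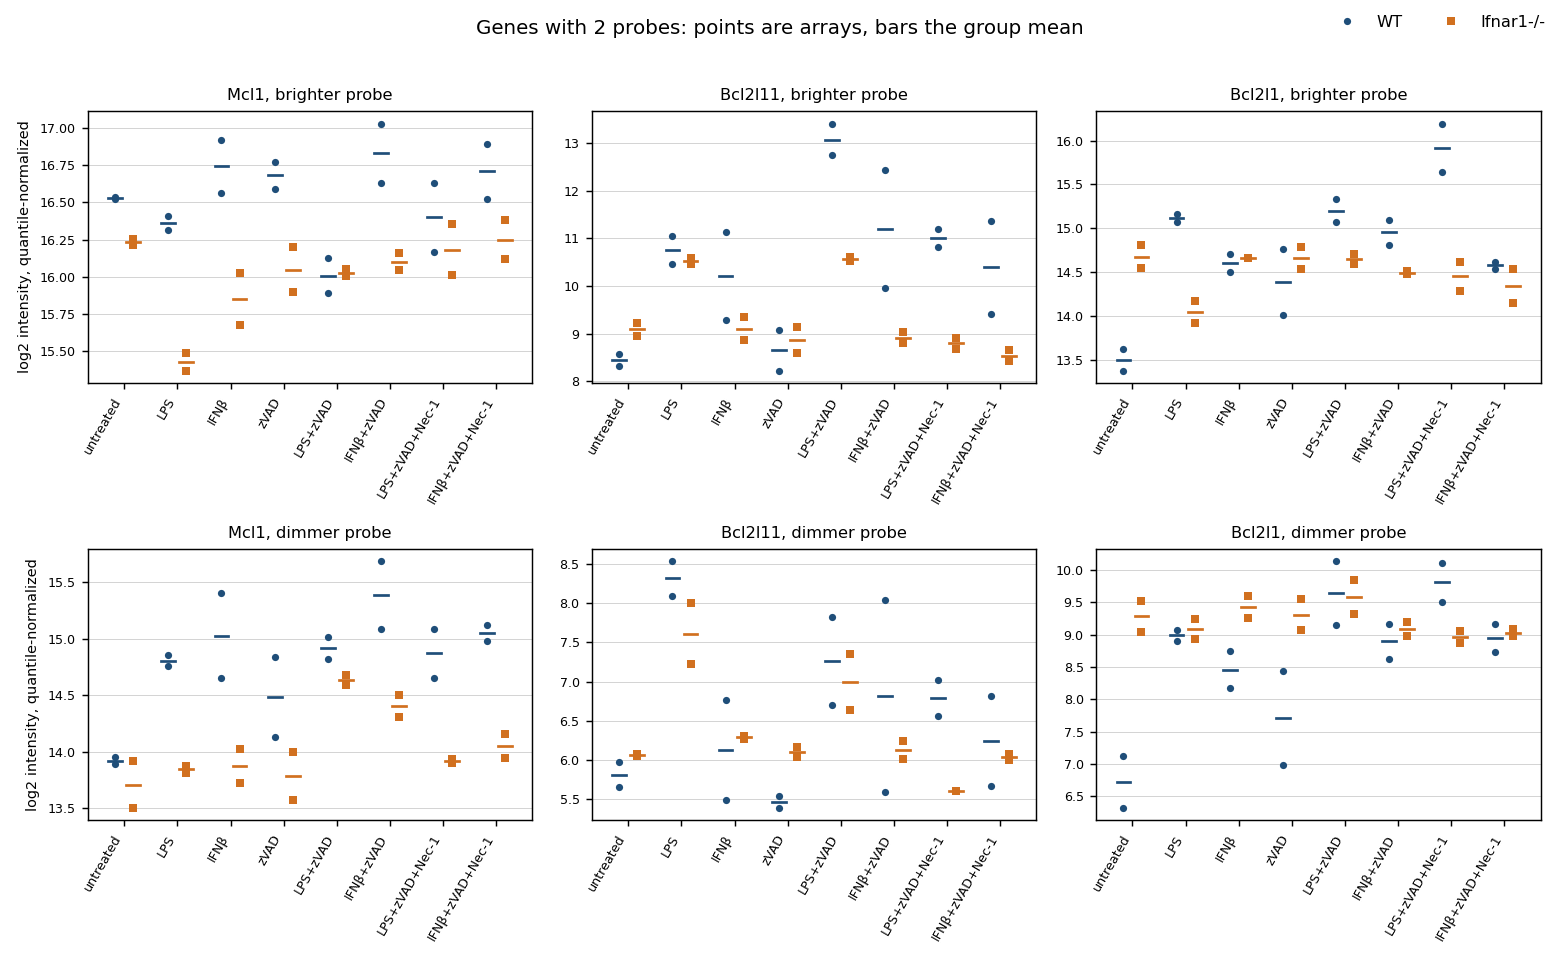
log2 intensity of the brighter (top) and dimmer (bottom) probe of Mcl1, Bcl2l11 and Bcl2l1 by treatment, with 1 point per array and bars at group means. For Mcl1 the WT LPS+zVAD arrays lie below the untreated arrays on the brighter probe (16.13 and 15.89 against 16.52 and 16.54) and above them on the dimmer one (15.01 and 14.82 against 13.95 and 13.89).

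Of the BH3-only genes, Bcl2l11 had the widest range of group means of all 10 members, 4.62 on the log2 scale, from untreated to LPS+zVAD-treated WT cells. Its product BIM binds all pro-survival proteins and can activate the effectors. WT arrays read 8.31 and 8.58 untreated, 11.05 and 10.47 with LPS, 12.73 and 13.41 with LPS+zVAD, and 10.83 and 11.20 with LPS+zVAD+Nec-1. The LPS+zVAD arrays were the highest of all 32, and the Nec-1 arrays fell back to the level of LPS alone. LPS+zVAD raised Bcl2l11 24.7-fold over untreated cells (log2 change 4.62, SE 0.66, adjusted p = 1.01e-05), and this call held without any single array. LPS alone raised it by 2.32 (0.00828), which was lost without WT untreated replicate 1 (2.18, 0.051) or WT LPS replicate 1 (2.02, 0.0736). LPS+zVAD exceeded LPS by 2.31 (0.0101), lost without WT LPS replicate 2 (2.02, 0.0917) or WT LPS+zVAD replicate 2 (1.97, 0.0975). Nec-1 lowered it by 2.06 (log2 change -2.06, adjusted p = 0.0245), lost in 3 of 4 cases with changes of -2.39 to -1.72 over the 4 and adjusted p up to 0.18.

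With IFNβ the Bcl2l11 replicates were far apart, 9.29 and 11.13 with IFNβ, 9.96 and 12.42 with IFNβ+zVAD, and 9.42 and 11.36 with IFNβ+zVAD+Nec-1, replicate 2 being the higher each time. All of these arrays lay above the untreated pair. The IFNβ change was 1.76 (adjusted p = 0.0444), which was lost without WT untreated replicate 1 (1.63, 0.162), WT untreated replicate 2 (1.90, 0.11) or WT IFNβ replicate 2 (0.85, 0.442). The IFNβ+zVAD change was 2.74 (0.00286), lost without WT IFNβ+zVAD replicate 2 (1.51, 0.094). With the slide as a block, limma kept both calls of the main probe, IFNβ (adjusted p = 0.0067) and IFNβ+zVAD (0.00019). With IFNβ the mean of both Bcl2l11 probes gave 1.04 (0.249) without the block.

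Ifnar1-/- arrays of Bcl2l11 read 8.96 and 9.23 untreated, 10.45 and 10.59 with LPS, 10.52 and 10.61 with LPS+zVAD, 8.86 and 9.34 with IFNβ, and 8.91 and 8.68 with LPS+zVAD+Nec-1. The LPS and LPS+zVAD arrays overlapped there and lay above the untreated pair. On all 32 arrays the changes of 1.43 and 1.47 passed with the slide as a block (adjusted p = 0.0289 and 0.0223) and not without it. The LPS+zVAD change also passed with only the arrays compared. On all 32 arrays the Nec-1 change of -1.77 likewise passed with the block (0.0107) and not without it. A dimmer Bcl2l11 probe at chr2:127954736-127955417, assigned to a single other transcript, gave another order in WT cells: 5.65 and 5.97 untreated, 8.09 and 8.54 with LPS and 6.71 and 7.82 with LPS+zVAD. It rose with LPS (2.51, SE 0.59, adjusted p = 0.00242) and LPS+zVAD (1.45, 0.048), and LPS+zVAD against LPS gave -1.05 (0.19), and the mean of both probes gave 0.63 (0.525), so the excess of LPS+zVAD over LPS was called on the main probe alone. The same held for IFNβ (dimmer probe 0.31, adjusted p = 0.739), IFNβ+zVAD (1.0, 0.203) and Nec-1 on LPS+zVAD (-0.47, 0.625, and -1.26, 0.173, with the mean of both probes).

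Bbc3, whose product PUMA binds all pro-survival proteins, was the member that fell with LPS in both genotypes. WT arrays read 13.32 and 13.16 untreated, 11.34 and 11.14 with LPS, and 12.16 and 12.94 with LPS+zVAD. Ifnar1-/- arrays read 12.26 and 12.71 untreated, 10.40 and 10.57 with LPS, and 12.08 and 12.09 with LPS+zVAD. The LPS arrays lay below every other array of their genotype, and the LPS+zVAD arrays lay between them and the untreated pair. LPS lowered Bbc3 3.99-fold in WT (log2 change -2.0, SE 0.45, adjusted p = 0.00145) and to the same extent in Ifnar1-/- cells (-1.99, 0.00306). Against LPS, LPS+zVAD was higher by 1.31 in WT (0.0288) and by 1.60 in Ifnar1-/- cells (0.0329). The WT call was lost without WT LPS replicate 1 (1.41, 0.0636), WT LPS replicate 2 (1.21, 0.144) or WT LPS+zVAD replicate 2 (0.92, 0.256), and the Ifnar1-/- call without any of its 4 arrays (1.51 to 1.68, adjusted p up to 0.184).

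Pmaip1, whose product NOXA neutralizes MCL1, stood apart between the WT slides. Replicate 2 read higher than replicate 1 in all 8 WT treatments: 10.00 and 10.75 untreated, 8.07 and 10.01 with LPS, 11.04 and 13.11 with IFNβ, 11.53 and 12.67 with LPS+zVAD, and 8.81 and 11.29 with LPS+zVAD+Nec-1. Within each slide LPS gave the lowest value and LPS+zVAD a higher one than untreated cells. On all 32 arrays without the block, with an SE of 0.90, only WT LPS+zVAD against LPS was called (8.32-fold, log2 change 3.06, adjusted p = 0.0118). It was lost without WT LPS replicate 1 (2.09) or WT LPS+zVAD replicate 2 (2.49). With only the arrays compared, LPS+zVAD against untreated was called in Ifnar1-/- cells. With the slide as a block the SE was 0.33 and 11 further Pmaip1 results passed. In WT cells these were LPS (-1.33, adjusted p = 0.00262), IFNβ (1.70, 0.000441), LPS+zVAD (1.72, 0.000226), IFNβ+zVAD (1.77, 0.00028) and Nec-1 on LPS+zVAD (-2.05, 0.000104). In Ifnar1-/- cells, where the arrays read 10.44 and 10.55 untreated, 11.51 and 11.56 with LPS and 12.03 and 11.94 with LPS+zVAD, the blocked LPS change was 1.04 (0.0196), opposite in sign to WT, the LPS+zVAD change 1.49 (0.00168) and the Nec-1 change -1.26 (0.00812).

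Bid, whose product is cleaved by caspase-8 into an activator of the effectors, rose with IFNβ in WT cells alone and with LPS+zVAD in both genotypes. WT arrays read 11.63 and 11.59 untreated, 12.24 and 11.58 with LPS, 13.75 and 13.33 with IFNβ, 13.16 and 13.59 with LPS+zVAD, and 13.55 and 13.07 with IFNβ+zVAD. The IFNβ, LPS+zVAD and IFNβ+zVAD arrays all lay above the untreated and LPS arrays, which overlapped. Bid rose 3.81-fold with IFNβ (log2 change 1.93, SE 0.24, adjusted p = 6.42e-06), by 1.77 with LPS+zVAD (6.75e-06) and by 1.70 with IFNβ+zVAD (2.50e-05), each without loss when any single array was left out, and LPS+zVAD exceeded LPS by 1.47 (0.000125). In Ifnar1-/- cells Bid read 11.70 and 11.91 untreated, 11.29 and 11.37 with LPS, 11.62 and 11.88 with IFNβ, and 12.89 and 13.00 with LPS+zVAD. Only the LPS+zVAD pair stood above the rest there, 1.14 over untreated (0.00192) and 1.61 over LPS (0.000386). Nec-1 on LPS+zVAD lowered Bid in WT (-0.66, 0.0486, lost in 3 of 4 cases) and in Ifnar1-/- cells (-1.10, 0.0044).

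The effectors parted: Bak1 moved and Bax did not pass any of the 24 tests on all 32 arrays. BAK resides on mitochondria in healthy cells, and BAX moves to them during apoptosis. WT Bak1 arrays read 13.68 and 13.45 untreated, 14.64 and 14.69 with LPS, 14.78 and 14.88 with IFNβ, 13.93 and 13.59 with LPS+zVAD, 14.72 and 14.72 with IFNβ+zVAD, and 14.72 and 14.87 with LPS+zVAD+Nec-1. The LPS+zVAD arrays overlapped the untreated ones, and the other 4 pairs lay above both. Bak1 rose with LPS (2.15-fold, log2 change 1.10, SE 0.17, adjusted p = 3.86e-05), IFNβ (1.27, 1.04e-05) and IFNβ+zVAD (1.16, 2.64e-05). LPS+zVAD was lower than LPS by 0.91 (log2 change -0.91, adjusted p = 0.00032), and adding Nec-1 raised it by 1.03 (0.000141). The Ifnar1-/- arrays of Bak1 read 14.19 and 14.30 untreated, 14.57 and 14.85 with LPS and 14.14 and 14.36 with IFNβ, and the LPS change of 0.46 (0.0490) was lost without any of its 4 arrays (0.32 to 0.60, adjusted p up to 0.333).

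Bax read 14.48 and 14.26 in untreated WT cells, 13.93 and 14.26 with LPS, 14.09 and 14.02 with IFNβ, and 14.22 and 14.18 with LPS+zVAD. Its changes lay between -0.38 and 0.15 in WT and between -0.20 and 0.47 in Ifnar1-/- cells, with an SE of 0.24. The Ifnar1-/- LPS arrays (15.16 and 14.93) and LPS+zVAD arrays (14.93 and 15.08) lay above the Ifnar1-/- untreated arrays (14.68 and 14.45), but the difference did not pass the test. With the Ifnar1-/- LPS+zVAD+Nec-1 pair or its replicate 2 left out of the fit, the genotype difference of the Bax change with LPS was called (0.75, SE 0.20, adjusted p = 0.0251).

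The question whether these changes need the type I interferon receptor was put to the difference of changes between genotypes (Ifnar1-/- minus WT), fitted as an interaction. For IFNβ it called 4 members beside 18.8% of all genes, all with the smaller change in Ifnar1-/- cells: Bid (-1.99, SE 0.35, adjusted p = 0.000494), Bak1 (-1.26, 0.000922), Bcl2 (-1.39, 0.0193) and Bcl2l1 (-1.12, 0.0234). The Bid and Bak1 differences held without any single array, and those of Bcl2 (-1.69 to -1.08 over 8 cases, adjusted p up to 0.107) and Bcl2l1 (-1.25 to -0.98, up to 0.101) were each lost in 5 of the 8. For IFNβ+zVAD it called 5 beside 19.3%: Bcl2 (-1.70, 0.0052), Bcl2l1 (-1.63, 0.00191), Bcl2l11 (-2.92, 0.0344), Bak1 (-1.09, 0.00322) and Bid (-1.54, 0.004). The Bcl2l11 difference was lost in 7 of 8 cases (-3.06 to -1.69 in these, adjusted p up to 0.196), and the dimmer probe gave -0.93 (0.494) and the mean of both probes -1.93 (0.164).

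For LPS the difference was called for 1 member beside 6.63%: Bcl2l1, with a log2 change of 1.62 in WT, -0.63 in Ifnar1-/- cells and a difference of -2.25 (SE 0.33, adjusted p = 0.000392), and the dimmer probe gave -2.47 (0.0146). For LPS+zVAD it called 2 beside 16.1%, Bcl2l1 (-1.72, 0.00152) and Bcl2l11 (-3.15, 0.0259). The Bcl2l11 difference held only without WT LPS+zVAD replicate 1 and lay between -3.29 and -2.82 in the 7 cases where it was lost, with adjusted p up to 0.102. The dimmer Bcl2l11 probe gave -0.52 (0.755) and the mean of both probes -1.84 (0.207). Both Bcl2l1 differences held without any single array, and beside them stands the higher level of Bcl2l1 in untreated Ifnar1-/- than in untreated WT cells (means 14.68 and 13.50), from which each change is counted. Untreated Ifnar1-/- arrays also lay above untreated WT arrays for Bcl2, Bcl2l11, Bak1 and Bid, the other genes with a called difference. The same held for Bcl2a1d, which had no called difference (15.79 and 15.28 against 14.31 and 14.13). How often this held over all genes was not counted, and slide and genotype cannot be told apart in it. For zVAD alone limma called 0 members beside 0% (1 at an unadjusted p under 0.05), and for LPS+zVAD against LPS 0 beside 3.6% (3 at an unadjusted p under 0.05). The slide as a block called 3 members for LPS, beside 16.8% of all genes, and 3 for LPS+zVAD against LPS, beside 13.4%. Those added for LPS were Mcl1 (-0.63, adjusted p = 0.0478) and Pmaip1 (2.37, 0.00257). Those for LPS+zVAD against LPS were Mcl1 (0.95, 0.00694), Bcl2l11 (-2.27, 0.0396) and Pmaip1 (-2.60, 0.00192). The dimmer Bcl2l11 probe gave the opposite sign there without the block (0.43, adjusted p = 0.898). With IFNβ the block also called Mcl1 (-0.59, 0.0384) and Pmaip1 (-1.74, 0.00892).

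**Figure D4:**
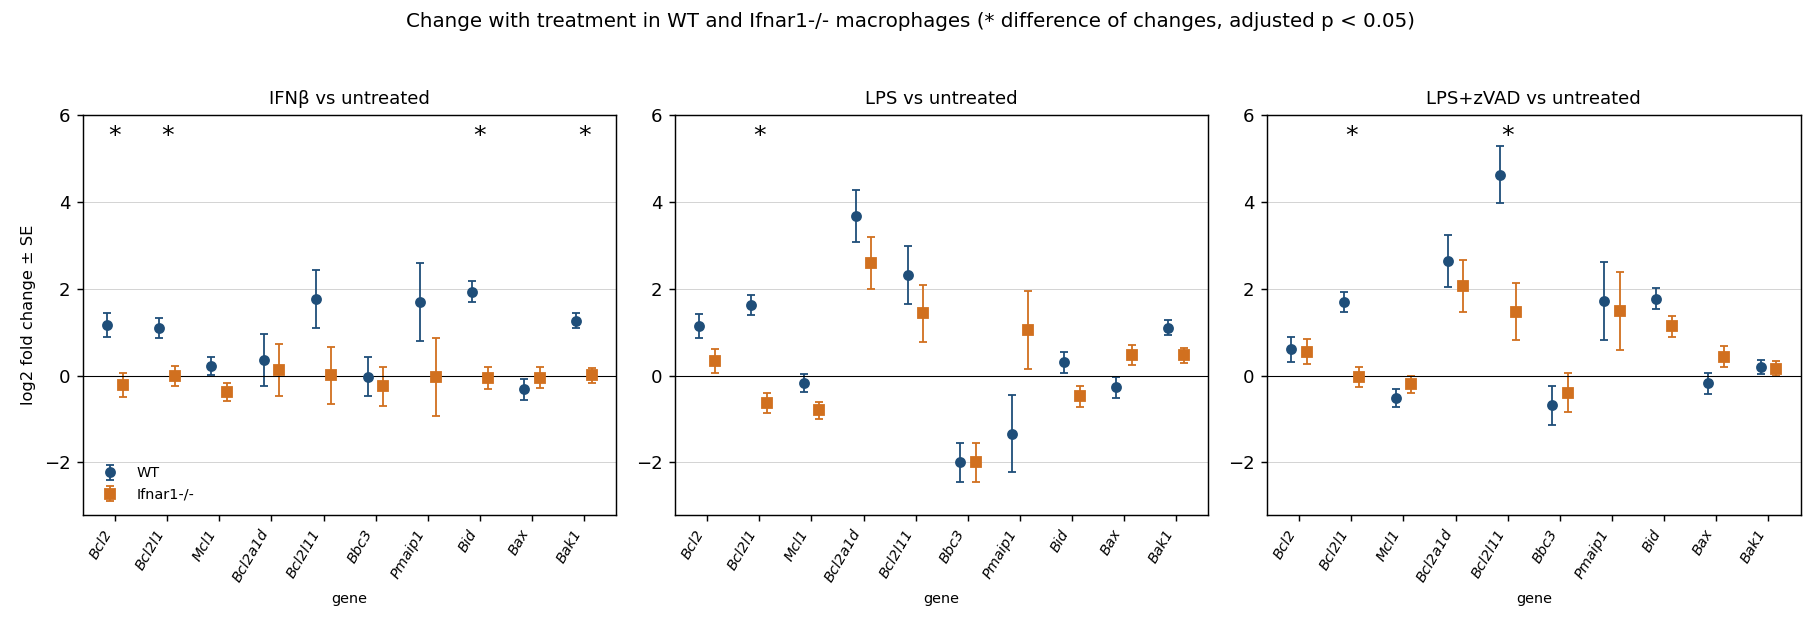
log2 fold change ± SE of each of the 10 genes with IFNβ, LPS and LPS+zVAD against untreated cells in WT (blue circles) and Ifnar1-/- macrophages (orange squares), 2 arrays per group, with an asterisk where the difference of changes had an adjusted p under 0.05. With IFNβ the Ifnar1-/- points lie near 0 for all 10 genes, and with LPS the Bcl2a1d and Bbc3 points of both genotypes lie on the same side of 0.

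Nec-1 on LPS+zVAD returned some WT members towards the LPS level: Bak1 rose, Bid fell, and Bcl2l11 fell on the main probe alone. LPS+zVAD against LPS and Nec-1 on LPS+zVAD share the WT LPS+zVAD arrays, with opposite signs, so their changes are not independent. Bcl2l1 instead moved away from the LPS level. It rose further by 0.72 (SE 0.23, adjusted p = 0.0266), a call lost in 3 of 4 cases (0.44 to 0.99 over the 4). That value was 0.33 under a 75th percentile shift (0.467) and 0.44 with the mean of both probes (0.306), it was also lost under normexp and with the authors' values, and the dimmer Bcl2l1 probe gave 0.16 (0.834). For Mcl1 the block called the brighter probe (0.39, 0.0432), where the dimmer probe gave -0.05 without it (0.929). Of the 4 WT calls, only that of Bak1 held without each of the 4 arrays. With only the arrays compared it was lost as well (limma, 1.03, adjusted p = 0.0802). In Ifnar1-/- cells Bcl2 fell by 0.99 (SE 0.28, adjusted p = 0.0197) and Bid by 1.10. With 1 array left out the group is a single array, assumed to vary like the other groups. With the replicate 2 array left out, the array that stood apart, Bid was still called (-1.04, 0.0399), Bbc3 (-1.48, 0.0312) and Bax (0.59, 0.0425) were called as well, and Bcl2 was not (-0.57, 0.283), a call lost in 3 of 4 cases in all. With replicate 1 left out, Bcl2 (-1.40, 0.00219), Bcl2a1d (-2.39, 0.00227), Bax (-0.59, 0.0171) and Bid (-1.17, 0.00742) were called. The Bax value changed sign with the array used.

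The order of the 16 group means separated few neighbours. Of 150 steps between neighbouring means over the 10 genes, 17 exceeded the SE of a difference of group means. That SE holds no difference between slides of different genotypes, so a step between genotypes cannot be told apart from the slide. For Bcl2l11 the largest step, 1.88, parted WT LPS+zVAD from WT IFNβ+zVAD. For Bid a step of 0.75 parted Ifnar1-/- IFNβ+zVAD from WT LPS+zVAD+Nec-1, above which lay the WT IFNβ groups and both LPS+zVAD groups. For Bcl2 no step exceeded the SE.

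Other genes of the family came from a list of 16, of which 9 passed the filter. LPS in WT cells called 6 (1 higher, 5 lower) beside 41.2% of all genes, of which 39.6% were higher. LPS+zVAD called 5 (1 higher, 4 lower) beside 50.9%, IFNβ 4 beside 35.3% and IFNβ+zVAD 5 beside 37.5%, the last 2 counts all lower. In Ifnar1-/- cells LPS called 4 (2 higher, 2 lower) beside 24.8%, and IFNβ called 0 beside 0%. The largest change was in Bmf, a BH3-only gene, at 12.76 and 13.03 untreated, 5.87 and 7.56 with LPS and 3.75 and 3.74 with LPS+zVAD. It fell with LPS (log2 change -6.18, SE 0.62, adjusted p = 6.36e-07). With LPS+zVAD neither array was well above background, so the size of the fall there is uncertain. The measured means were 568-fold lower than untreated (adjusted p = 3.24e-09) and 7.85-fold lower than with LPS (0.000962). The Bmf difference between genotypes (Ifnar1-/- minus WT) was 3.08 for LPS (0.0398), 2.63 for IFNβ (0.0427) and 4.44 for IFNβ+zVAD (0.00158), so the change lay higher in Ifnar1-/- than in WT cells each time. Bcl2a1c, another A1 gene, rose from 10.60 and 10.80 to 15.59 and 15.17 with LPS (4.69, SE 0.75, 6.84e-05) and by 3.35 with LPS+zVAD (0.000943). LPS also lowered Bnip3l (-1.62, 0.00146), Bcl2l13 (-1.29, 0.0473) and Bok (-1.80, 0.0356), the last above background on 1 of the 2 LPS arrays. LPS+zVAD lowered Bad, a BH3-only gene (-1.56, SE 0.19, 1.41e-06), Bcl2l13 (-1.44, 0.0225) and Bcl2l12 (-0.94, 0.0384), and against LPS it lowered Bad (-1.07, 0.000213) and Bnip3 (-1.60, 0.0369).

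Of 33 genes of the wider apoptosis pathway, all tested, LPS in WT cells called 14 (8 higher, 6 lower) beside 41.2% of all genes, LPS+zVAD 17 (6 higher, 11 lower) beside 50.9%, and LPS+zVAD against LPS 14 (1 higher, 13 lower) beside 34.6%. IFNβ called 14 (10 higher, 4 lower) beside 35.3% in WT cells and 0 beside 0% in Ifnar1-/- cells. The list's shares with LPS and LPS+zVAD were near those of all genes. With LPS Cflar, an inhibitor of caspase-8 activation, rose by 3.04 (SE 0.49, adjusted p = 7.60e-05), the death receptor gene Fas by 2.78 (0.00323), the cytochrome c gene Cycs by 2.44 (3.98e-07) and Cdkn1a by 2.02 (9.59e-05). LPS+zVAD raised Cflar (4.0, 1.81e-06) and Mdm2, whose product restrains p53 (3.20, 1.05e-06), and lowered Casp9, the initiator caspase of the mitochondrial route (-3.74, 2.32e-08), and Aifm1 (-2.25, 1.36e-06). Against LPS, LPS+zVAD raised Mdm2 (2.68, 2.35e-05) and lowered Casp9 (-2.24, 2.23e-05), Apaf1, whose product assembles the caspase-9 platform (-1.34, 0.000308), Tradd (-1.18, 6.05e-06) and Aifm1 (-1.12, 0.00307).

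Likeness of pattern was described by Pearson's r over the 16 group means, centred within each genotype, and the points share slides and untreated arrays. Bcl2a1d was most like Bcl2a1c (0.998), Procr (0.989) and Kremen1 (0.988). Bcl2l11 was most like Slc23a2 (0.973), Tbata (0.97) and Hist1h4i (0.965), Bid most like Phlpp1 (0.971), Bak1 most like Pcsk7 (0.97) and Bbc3 most like Rgs2 (0.971). The remaining members had nearest genes at 0.865 to 0.909. Among the members themselves the closest pairs were Bcl2a1d with Bcl2l11 (0.683), Pmaip1 with Bid (0.665), Mcl1 with Bbc3 (0.631) and Bcl2 with Bak1 (0.626). The most opposed were Bcl2a1d with Bbc3 (-0.871). A nearest gene was sought among all genes tested and a closest pair among the 10 members alone, so these values are not set against each other.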

How the data were processed

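RNA of each sample was hybridised to a single-colour Agilent mouse array. The deposited scanner files hold intensities that the authors extracted with Feature Extraction 11.5.1.1, already background-subtracted (the processed signal). A deposited table of normalized log2 values made by the authors was used only as an alternative. Here, outlier spots (130 to 499 an array) were dropped, spots of 1 probe were averaged, log2 intensities were quantile normalized over 55681 probes, and probes well above background on at least 50% of arrays (16 of 32) were kept, 21465 with a symbol. The brightest probe stood for a gene. limma 3.58.1 (R 4.3.3) fitted 16 group means (16 residual degrees of freedom), and the code was tested on simulated data. No member probe was saturated. Genes of the array's probes carry the names and mm9 positions of its design, and sequences are from RefSeq (GRCm38.p6).

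Replicate numbers mark the slide. Deviations of same-slide arrays correlated above 0.1 in all 28 pairs of groups in each genotype (WT 0.319 to 0.67, Ifnar1-/- 0.17 to 0.575), so the slide was fitted as a replicate block as an alternative, as were a 75th percentile shift, normexp background (offset 50), no filter, the mean of all probes, only the arrays compared, and leaving arrays out. The WT slides were scanned on 2 days and both Ifnar1-/- slides on 1 other day.

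All 10 members were named. Of the other lists, up to 5 called genes with the largest change were named for LPS, LPS+zVAD and LPS+zVAD against LPS in WT cells, and the 3 most alike genes were found for each member. A gene that this rule selected is not reported here. The members and lists were chosen with earlier results of these data known.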

Additional observations from a re-analysis of the deposited data

Results flagged for a closer look

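In 12 results the change of a member differed between genotypes by the test of the difference of changes itself (Ifnar1-/- minus WT, log2 scale, limma interaction, adjusted over all genes). For LPS it was Bcl2l1 (-2.25). For IFNβ these were Bcl2 (-1.39), Bcl2l1 (-1.12), Bak1 (-1.26) and Bid (-1.99). For LPS+zVAD against untreated cells these were Bcl2l1 (-1.72) and Bcl2l11 (-3.15). For IFNβ+zVAD against untreated cells these were Bcl2 (-1.70), Bcl2l1 (-1.63), Bcl2l11 (-2.92), Bak1 (-1.09) and Bid (-1.54). All 12 were negative. For LPS 6.63% of all genes were called (486 positive, 578 negative), and for IFNβ 18.8% (1645 positive, 1369 negative). For LPS+zVAD the share was 16.1% (1820 positive, 767 negative), and for IFNβ+zVAD 19.3% (1744 positive, 1345 negative). These comparisons share the untreated arrays. With IFNβ and IFNβ+zVAD every called member rose in WT cells and none was called in Ifnar1-/- cells, so negative signs there follow. Groups of 2 arrays are too small for a test of single deviating values within a group.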

How the results depend on the processing

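The 52 member calls were recomputed under other treatments of the data, with arrays left out and with the replicate block. Of 720 such values 605 kept direction and call, 113 kept direction without passing, and 2 turned, both Mcl1 with LPS+zVAD in WT cells: 0.37 under a 75th percentile shift and 0.24 with the mean of all probes. In all, 27 calls passed throughout, and 31 passed without any single array. The replicate block lost 0 calls and gained 24 of 240 results, 11 of them Pmaip1. The cause of the moves below was not tested, except that fitting only the arrays compared leaves fewer samples to estimate the spread.

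With the block, zVAD in WT cells called 1 member beside 0.218% of all genes. In Ifnar1-/- cells the block gave 7 for LPS beside 38.6%, 4 for LPS+zVAD beside 43% and 4 for LPS+zVAD against LPS beside 19.5%. For Nec-1 on LPS+zVAD in those cells it gave 4 beside 35%. The genotype differences gave 3 for LPS beside 16.8% and 3 for LPS+zVAD against LPS beside 13.4%. With only the arrays compared, WT counts were 3 for IFNβ, 1 for LPS+zVAD against LPS beside 10.7%, and 0 for Nec-1 on LPS+zVAD beside 0%. Ifnar1-/- counts were 5 for LPS+zVAD and 0 for Nec-1 on LPS+zVAD beside 0%. WT Nec-1 on LPS+zVAD gave 2 under a 75th percentile shift, normexp, the mean of probes or the authors' values. Ifnar1-/- LPS+zVAD against LPS gave 1 under a 75th percentile shift or no filter. The difference in LPS gave 2 without the Ifnar1-/- LPS+zVAD+Nec-1 pair or its replicate 2 (left out after seeing the data), that in LPS+zVAD gave 1 with the mean of probes, and that in LPS+zVAD against LPS gave 1 under normexp. The remaining counts here, and those below without 1 array, stand without the share of all genes. They are therefore not read as a result about the members.

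Without 1 array, WT counts were 3 to 4 for IFNβ, 0 to 1 for zVAD, 2 to 5 for LPS+zVAD against LPS and 1 to 3 for Nec-1 on LPS+zVAD. Ifnar1-/- counts were 2 to 3 for LPS, 1 to 2 for LPS+zVAD, 1 in each case for LPS+zVAD against LPS and 1 to 4 for Nec-1 on LPS+zVAD. The differences gave 2 to 3 for IFNβ and 1 to 2 for LPS+zVAD.

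Over all genes, only the arrays compared lowered the share called for WT LPS+zVAD against LPS from 34.6% to 10.7%, for IFNβ+zVAD from 37.5% to 23.1%, and to 0% for Nec-1 on LPS+zVAD in both genotypes, whereas the block raised the Ifnar1-/- LPS share from 24.8% to 38.6% and the difference in IFNβ from 18.8% to 33.8%. The 75th percentile shift moved the all-gene median in WT LPS+zVAD from -0.15 to 0.12, and the share of higher among called genes from 39.6% to 50.2% for LPS, 38.8% to 50.1% for IFNβ and 38.4% to 48.5% for IFNβ+zVAD in WT, and from 54.6% to 40.9% and 56.5% to 43.2% for the differences in IFNβ and IFNβ+zVAD.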
